A study of Mus musculus with 6 samples.

Results

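The 58 genes described here carry out mitosis, the step in which a cell condenses its duplicated chromosomes, attaches them to a spindle, separates them and divides. They were chosen with earlier results of these data known, so their counts beside those of all genes are a description. They were grouped by role as cyclins and kinases, chromosomal passenger complex, spindle checkpoint, anaphase promoting complex and separase axis, and kinetochore. The other roles are kinesin motors, spindle proteins, condensin and chromosome structure, and cytokinesis. Of the 58, 57 were measured, of 18193 genes in all, and the cyclin gene Ccnb1 is not analysed here. Their RNA was compared between 2 blood-forming populations sorted by flow cytometry from wild-type C57BL/6 mice. Both populations were low in lineage markers and Kit positive. LSK cells, which hold the stem cells and multipotent progenitors, were also Sca1 positive, and LK cells, which hold the committed progenitors, were Sca1 negative. Each population had 3 arrays of linearly amplified RNA, with no allele or treatment named in either, and the labels give neither the age of the mice nor whether animals were pooled. The arrays are called LSK 1 to LSK 3 and LK 1 to LK 3. Values are log2 intensities of 1 probe set for each gene, so a difference of 1 is a 2-fold difference.

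Entry into mitosis is driven by the kinase Cdk1 with its cyclins, and the Aurora and Polo-like kinases then build the spindle. Kinetochores tie each chromosome to spindle microtubules, the checkpoint holds the cell until all are attached, and the anaphase promoting complex then releases the sister chromatids. Transcripts of most of these genes accumulate in G2 and M phase, and they serve as a common readout of proliferation in bulk samples. Long-term blood stem cells are known to be mostly quiescent, whereas committed progenitors divide often. On bulk arrays, fewer dividing cells and less of these RNAs per cell cannot be told apart.

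The sorted populations carried the markers of their labels. The summed intensity of 9 measured stem and multipotent cell genes lay between 5538 and 6494 on the LSK arrays and between 963 and 1378 on the LK arrays, and 7 of the 9 were higher in LSK, with Mecom and Hlf differing most. Of 8 erythroid progenitor genes 5 were lower in LSK, with Ermap and Car1 differing most, and their sums were 687 to 1151 in LSK and 4609 to 8477 in LK. Of 8 granulocyte and monocyte progenitor genes 6 were lower in LSK, Elane and Fcgr3 most, with sums of 4962 to 10394 in LSK and 16239 to 31038 in LK. No megakaryocyte, mature lymphoid or mature myeloid gene of 6, 9 and 9 passed the threshold, with 3, 1 and 1 of them at an unadjusted limma p under 0.05, and 2, 0 and 4 passed in a fit blocked on the replicate number. The committed progenitor genes thus moved with the comparison, and their part in the results below was not tested. The gene for Sca1 is not analysed here. The control probe sets of Actb and Gapdh gave a log2 signal at the 3' end that exceeded that at the 5' end by 2.64 ± 0.56 (SD, n = 3) for the LSK arrays and by 3.53 ± 0.36 (SD, n = 3) for the LK arrays. A two-sided exact permutation test of this measure of RNA integrity and amplification gave p = 0.2, and 0.1 is the smallest that 3 arrays against 3 can give.

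Where mitosis genes passed the test, they were lower in LSK than in LK cells. Of the 57 measured, 21 were lower, 0 were higher and 36 did not pass a limma adjusted p of 0.05, with 42 lower and 0 higher at an unadjusted p under 0.05. Over all genes 2.89% were lower and 3.84% were higher in LSK by the same test. At an unadjusted limma p under 0.05, 2174 of the 18193 genes were lower and 1910 higher. The 57 log2 differences had a median of -1.07, against -0.02 over all 18193 genes. Of the 57 differences 55 lay below 0, against 9706 of the 18193. On 41 of the 57 genes every LSK array lay below every LK array, a pattern found for 14.8% of all genes. Many of all genes read low, with an LSK mean under log2 4 for 10691 of the 18193, against 8 of the 57. In a fit limited to genes with a mean log2 of at least 5, 26 of 45 mitosis genes were lower. In that fit 749 of all 6016 genes were lower and 649 higher. The median difference was -1.08 for the 45 and -0.11 for the 6016. The 14.8% was not recounted for such genes. The 21 genes differed by 1.77-fold to 4.52-fold with a median of 2.60-fold, and 16 of them by at least 2-fold.

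**Figure D1:**
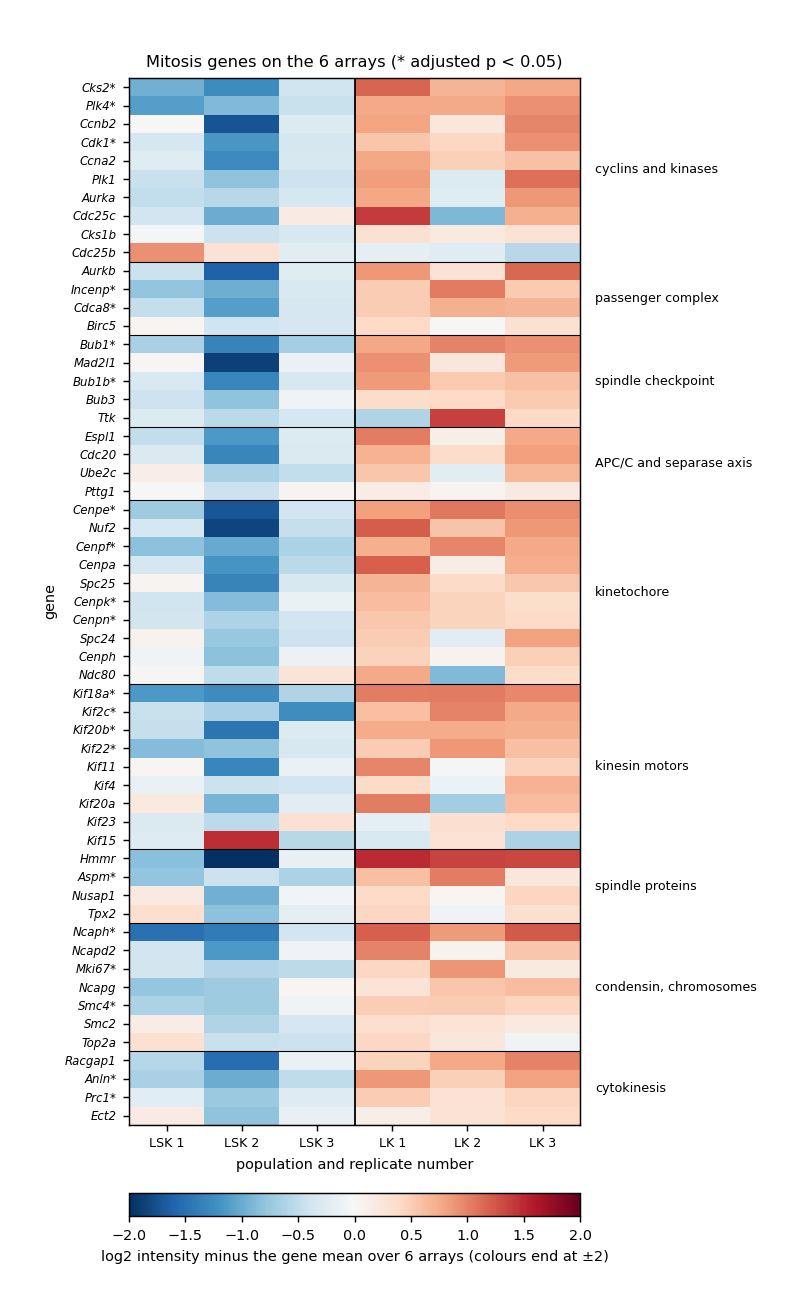
Colour map of the 57 measured mitosis genes (rows, grouped by role) on the 6 arrays (columns), as log2 intensity minus the mean of the gene over the 6 arrays, with an asterisk on the 21 genes past an adjusted p of 0.05. The LSK columns are mostly blue and the LK columns mostly red, LSK 2 is the lowest array for 47 genes, and Cdc25b and Kif15 are the 2 genes whose mean is higher in LSK.

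The arrays of a population did not behave alike. The median log2 intensity of the 57 genes was 6.50, 5.87 and 6.73 on LSK arrays 1 to 3 and 7.66, 7.45 and 7.75 on LK arrays 1 to 3, so the populations did not overlap. LSK 2 gave the lowest of the 6 values for 47 of the 57 genes. LK 2 was the lowest of its population for 32 genes. Both replicate 2 arrays also had lower upper quartiles of intensity over all probe sets, 22.1 in LSK and 20.8 in LK against 24.3 to 25.8 on the other arrays. Arrays with the same number deviated together, and the median difference of the 57 genes between paired arrays was -0.98, -1.31 and -0.91 for numbers 1, 2 and 3. Over all genes these paired medians were -0.02, -0.02 and -0.03 in turn. The share of all genes with LSK below LK in 3 of 3 pairs was not counted. Of the 57 mitosis genes 52 had that pattern, a count without a background to weigh it against. With the replicate number as a block in the fit, 39 were lower and 0 higher, against 7.36% of all genes lower and 7.02% higher. Leaving out LSK 2 gave 17 genes and a median difference of -0.83, and leaving out both arrays numbered 2 gave 14 and -0.97. Of all genes 1.12% and 0.912% were then lower, in turn. Dropping LSK 1 left 6 genes, dropping LK 1 left 11 and dropping LK 3 left 5. In these fits the genes lower in LSK fell in turn to 0.434%, 1.53% and 0.418% of all genes. Of the 57 genes 54 or 55 lay below 0 in each of the 6 fits that left out 1 array. A fit with the 3' excess of the control probe sets as a covariate called 0 (24 lower at an unadjusted limma p under 0.05), with a median of -0.97 and 55 genes below 0. In that fit 25 of all genes passed, 0 of them lower in LSK.

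Many promoters of mitosis genes are known to carry a CHR element, the cell cycle genes homology region, whose core is TTTGAA, and CCAAT boxes upstream of it. MuvB complexes bind the CHR, with repressor partners in quiescent cells and with activators in G2 and M phase, and NF-Y binds CCAAT. RefSeq promoter entries (GRCm38.p6, 250 bases before to 50 after the annotated start) were found for 49 of the 57 genes and searched for both motifs on both strands. The core TTTGAA stood in 35 of the 49 (71.4%), against 15.7% of 14449 genes tested on the array with an entry and 17.9% of all 32841 entries. Within 50 bases of the start it stood in 32 of the 49 (65.3%), against 4.09% of those genes. CCAAT stood in 36 of the 49 (73.5%), against 42.0%, and in 37.4% of all entries. Both motifs stood in 30 (61.2%), against 6.21%. Among the genes lower in LSK 12 of 19 (63.2%) held TTTGAA, and among those not past the threshold 23 of 30 (76.7%). A match describes the letters in this window and does not show that a factor binds there.

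The promoters of the 4 genes with the lowest p that hold the core are shown from 120 bases before to 30 after the start, with that of Kif18a, the gene with the lowest p that holds neither motif. Capitals mark each match to TTTGAA or to CCAAT, read on either strand, that lies whole in the stretch, and positions count the first base of a match from the start, which is base 1. In Cenpf (chr1:189688057-189688206, minus strand) the core begins at base 3 and a CCAAT box at -71. In Anln (chr9:22389177-22389326, minus strand) it begins at base 22, and a further match at base 29 runs past the end shown. In Kif22 (chr7:127042391-127042540, minus strand) the core begins at -17 and a CCAAT box at -54, and in Cenpn (chr8:116921620-116921769, plus strand) they begin at -9 and -18. The Kif18a stretch is chr2:109280618-109280767, plus strand.
Cenpf: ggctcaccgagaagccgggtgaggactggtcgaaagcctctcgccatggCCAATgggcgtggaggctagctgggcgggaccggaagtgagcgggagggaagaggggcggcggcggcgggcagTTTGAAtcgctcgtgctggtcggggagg
Anln: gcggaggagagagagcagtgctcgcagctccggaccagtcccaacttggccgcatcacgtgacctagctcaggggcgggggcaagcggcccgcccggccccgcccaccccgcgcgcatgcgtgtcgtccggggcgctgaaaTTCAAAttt
Kif22: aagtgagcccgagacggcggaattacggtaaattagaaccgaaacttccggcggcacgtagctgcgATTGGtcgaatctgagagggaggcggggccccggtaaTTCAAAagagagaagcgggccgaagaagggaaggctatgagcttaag
Cenpn: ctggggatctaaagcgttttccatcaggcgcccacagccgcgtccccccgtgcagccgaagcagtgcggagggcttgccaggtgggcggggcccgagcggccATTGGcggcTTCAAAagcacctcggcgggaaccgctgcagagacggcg
Kif18a: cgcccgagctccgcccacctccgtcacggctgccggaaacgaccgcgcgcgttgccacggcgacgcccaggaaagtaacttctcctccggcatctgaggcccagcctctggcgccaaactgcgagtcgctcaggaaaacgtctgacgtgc

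**Figure D2:**
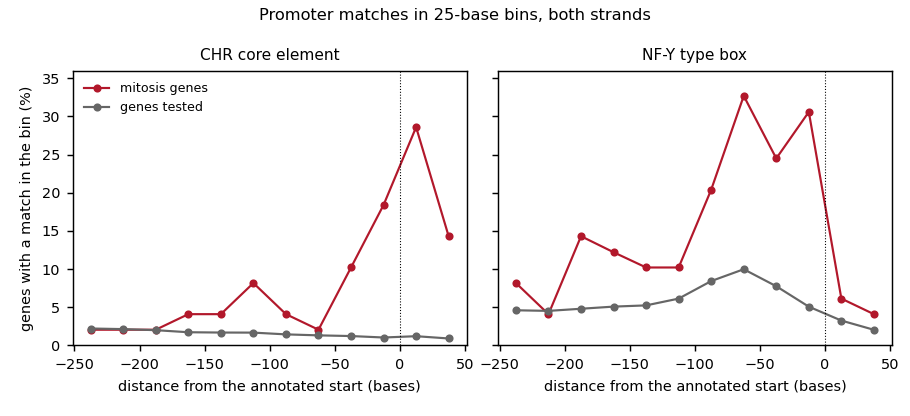
Share of genes (%) with a match to the CHR core (left) or to the CCAAT box (right) in each 25-base bin of the promoter, against distance from the annotated start in bases, for the 49 mitosis genes with an entry (red) and the 14449 genes tested (grey). The CHR core peaks in the first 25 bases after the start, at 28.6% of mitosis genes against 1.19% of the genes tested, and the CCAAT box between 75 and 51 bases before it, at 32.7% against 9.97%.

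Of the cyclins and kinases that drive entry into mitosis, 3 of 10 measured were lower in LSK, 0 were higher and 7 did not pass, with a median log2 difference of -1.17. Plk4, the kinase that starts centriole duplication, had log2 intensities of 6.29, 6.51 and 6.96 on LSK arrays 1 to 3 and 8.16, 8.15 and 8.32 on the LK arrays. The LK arrays lay close together and far above LSK, a 3.08-fold difference (log2 difference -1.62, SE 0.19, adjusted p = 0.00735). Cks2, a small subunit of cyclin-dependent kinases, read 9.67, 9.39 and 10.24 in LSK and 11.81, 11.32 and 11.41 in LK. It was 3.36-fold lower in LSK (-1.75, SE 0.25, adjusted p = 0.0137), with more than 1 log2 unit between the highest LSK and the lowest LK array. Cdk1, the kinase of mitotic entry itself, read 7.65, 6.84 and 7.65 in LSK and 8.56, 8.41 and 8.91 in LK. LSK was 2.37-fold lower (-1.25, SE 0.26, adjusted p = 0.0421), again without overlap. Its mitotic partners gave log2 differences of -1.23 for Ccna2 (SE 0.29, adjusted p = 0.0541) and -1.33 for Ccnb2 (SE 0.46, adjusted p = 0.152), and both passed with the replicate block (0.0186 and 0.0237). For both cyclins all LSK arrays lay below all LK arrays, as for 14.8% of all genes. Plk1 (-1.11, adjusted p = 0.127) and Aurka (-0.93, adjusted p = 0.124), the main spindle kinases, also passed with the block (0.0296 and 0.0499), and their LSK means of 2.91 and 3.51 lay under log2 4, at the lower end of the range. Cks1b, the paralog of Cks2, differed by -0.51 (SE 0.15, adjusted p = 0.0921). The 2 Cdc25 phosphatases, which switch Cdk1 on, showed no called difference. Cdc25b had a positive difference of 0.64 (SE 0.29, adjusted p = 0.259). Cdc25c read 4.26, 3.67 and 4.81 in LSK and 6.05, 3.76 and 5.36 in LK, with overlapping groups (-0.81, SE 0.59, adjusted p = 0.499). Plk4 passed in 6 of 6 fits that left out 1 array and not without both arrays numbered 2. The Cks2 call did not survive leaving out LSK 1 or LK 3 (adjusted p at most 0.0659), nor the Cdk1 call any of the 6 (at most 0.142).

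**Figure D3:**
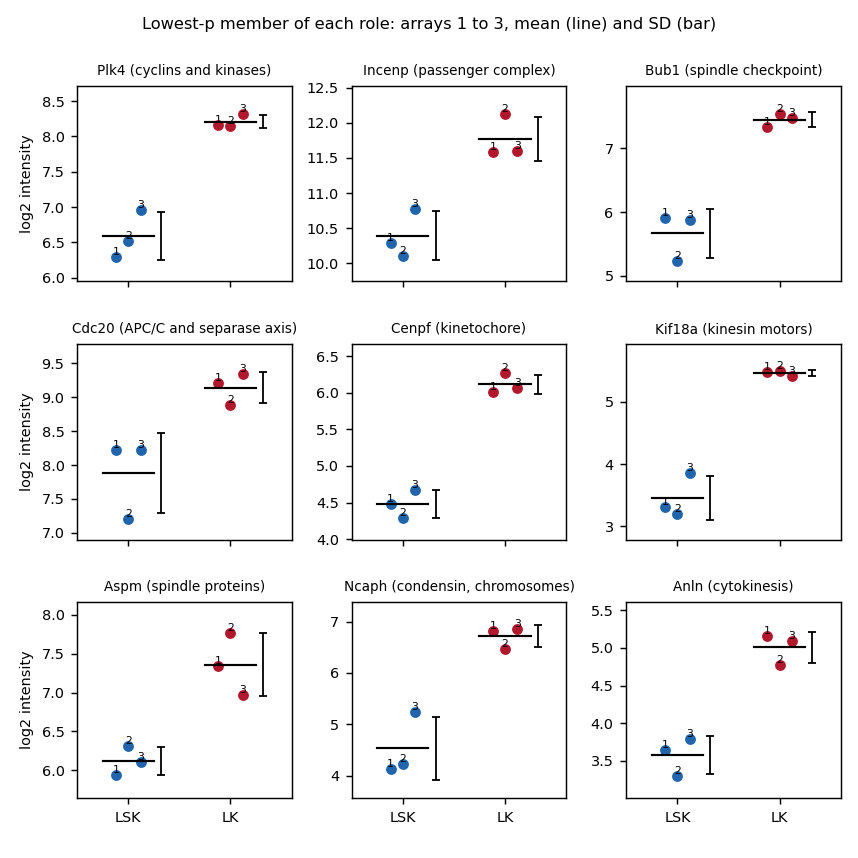
Log2 intensity on each array (points, numbered by replicate) in LSK (blue) and LK (red) for the member with the lowest p in each of the 9 roles, with the population mean as a line and the SD over 3 arrays as a bar. In all 9 genes the 3 LSK points lie below the 3 LK points. The genes were picked by p from these same values, so their separation is not a separate result. It held for 41 of the 57 measured mitosis genes and for 14.8% of all genes. Cdc20 is the 1 of the 9 that did not pass the adjusted p threshold.

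The chromosomal passenger complex corrects faulty attachments and steers cytokinesis. Of its 4 genes 2 were lower in LSK and 0 higher. Incenp, its scaffold, read 10.29, 10.11 and 10.78 in LSK and 11.58, 12.12 and 11.60 in LK, a 2.60-fold difference with no overlap (-1.38, SE 0.24, adjusted p = 0.0229). Cdca8, or Borealin, read 9.35, 8.72 and 9.49 in LSK and 10.32, 10.54 and 10.50 in LK, a 2.40-fold difference (-1.26, SE 0.22, adjusted p = 0.0240). In both genes the LSK arrays were all below the LK arrays, as for 14.8% of all genes. The kinase gene Aurkb had a larger but more variable difference of -1.53 (SE 0.40, adjusted p = 0.0731) and passed with the block (0.00771). Birc5, or survivin, read 9.65, 9.21 and 9.28 in LSK and 10.003, 9.60 and 9.92 in LK, and LSK 1 lay just above LK 2 (-0.46, SE 0.18, adjusted p = 0.196). With 1 array left out, Incenp kept its call in 2 of 6 fits, those lacking LSK 3 or LK 1, and Cdca8 in the 2 lacking LSK 2 or LSK 3 (highest adjusted p 0.0902 and 0.0976).

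In the spindle checkpoint, 2 of 5 genes were lower in LSK, 0 higher and 3 not past the threshold. Bub1, a checkpoint kinase at the kinetochore, read 5.90, 5.23 and 5.87 in LSK and 7.33, 7.55 and 7.48 in LK. It was 3.44-fold lower in LSK (-1.78, SE 0.21, adjusted p = 0.00714), the third lowest p of the 57 genes, and passed in 6 of 6 fits that left out 1 array. Bub1b, which encodes the checkpoint protein BubR1, read 5.87, 4.87 and 5.85 in LSK and 7.02, 6.69 and 6.76 in LK (2.46-fold, -1.30, SE 0.29, adjusted p = 0.0482). Its call held in 1 of those 6 fits, that without LSK 2, and rose to an adjusted p of up to 0.140 in the others. Bub3 (-0.86, adjusted p = 0.0552) and Mad2l1 (-1.32, adjusted p = 0.190), which form the inhibitor of Cdc20 with BubR1, passed with the block (0.0277 and 0.0312). The Bub3 value comes from an _s_at probe set, a suffix for probes that can match several transcripts, and its next brightest probe set gave a difference of 0.03. For Mad2l1 LSK 2, at 5.30, lay well below the other LSK arrays at 7.21 and 7.04. The checkpoint kinase gene Ttk read 5.02, 4.74 and 4.94 in LSK and 4.68, 6.65 and 5.68 in LK, so its LK arrays spread on both sides of LSK (-0.77, SE 0.46, adjusted p = 0.393).

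None of the 4 genes of the anaphase promoting complex and separase axis passed the threshold in limma, 2 were lower at an unadjusted p under 0.05, and the same number passed with the block. Cdc20, the activator of the complex, read 8.23, 7.21 and 8.23 in LSK and 9.21, 8.88 and 9.34 in LK (-1.26, SE 0.30, adjusted p = 0.0593, 0.0138 with the block). Espl1, which encodes separase, the protease that opens cohesin, read 3.27, 2.60 and 3.49 in LSK and 4.78, 3.86 and 4.51 in LK (-1.27, SE 0.31, adjusted p = 0.0628, 0.00892 with the block). In both genes each LSK array lay below each LK array, as for 14.8% of all genes. Ube2c, the ubiquitin-conjugating enzyme of the complex, differed by -0.67 (SE 0.30, adjusted p = 0.258). Pttg1, or securin, the inhibitor of separase, read 9.74, 9.33 and 9.81 in LSK and 9.90, 9.81 and 9.93 in LK and had the smallest difference of the 4 (-0.25, SE 0.16, adjusted p = 0.442), with overlapping groups.

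Kinetochore genes were lower in LSK in 4 of 10 cases, 0 were higher and 6 did not pass, with a median difference of -1.01. Cenpf, a large protein of the outer kinetochore, had the lowest p of all 57 genes. It read 4.48, 4.29 and 4.67 in LSK and 6.01, 6.27 and 6.06 in LK, with both populations tight around means 3.10-fold apart (-1.63, SE 0.15, adjusted p = 0.00392). The 2 other Cenpf probe sets, under log2 4 in both populations, gave -0.23 and -0.06. Cenpn, which recognises the centromeric nucleosome, read 4.39, 4.13 and 4.37 in LSK and 5.29, 5.19 and 5.12 in LK (1.88-fold, -0.91, SE 0.13, adjusted p = 0.0146). Its difference was smaller than that of Cenpf but again larger than the spread of either population. The kinetochore motor gene Cenpe read 5.35, 4.34 and 5.68 in LSK and 6.88, 7.11 and 6.98 in LK (3.66-fold, -1.87, SE 0.33, adjusted p = 0.0263). Cenpk, an inner kinetochore gene, read 7.66, 7.18 and 7.92 in LSK and 8.66, 8.49 and 8.41 in LK (1.91-fold, -0.94, SE 0.21, adjusted p = 0.0484). LSK 2 was the lowest array in both. The gene for the centromeric histone variant, Cenpa, differed by -1.37 (SE 0.33, adjusted p = 0.0570) and passed with the block (0.00626). Subunits of the microtubule-binding NDC80 complex gave unequal differences. Nuf2 differed by -1.77 (SE 0.41, adjusted p = 0.0535, 0.0115 with the block), Spc25 by -1.08 (SE 0.35, adjusted p = 0.124, 0.0384 with the block) and Spc24 by -0.74 (SE 0.32, adjusted p = 0.236). Ndc80 itself read 3.60, 3.07 and 3.83 in LSK and 4.33, 2.70 and 3.94 in LK, at the lower end of the range and with full overlap (-0.16, SE 0.43, adjusted p = 0.879). Cenph differed by -0.67 (adjusted p = 0.162) and passed with the block (0.0352). Cenpf passed in 6 of 6 fits that left out 1 array. Cenpn kept its call in 4 of these (not when LSK 1 or LK 3 was dropped, highest adjusted p 0.0618), Cenpe in the 2 lacking LSK 2 or LSK 3 (0.0982) and Cenpk in the 1 lacking LSK 3 (0.128).

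Among 9 kinesin motors, 4 were lower in LSK, 0 higher and 5 not past the threshold. Kif18a, which dampens chromosome movements at the spindle's middle, read 3.31, 3.20 and 3.85 in LSK and 5.48, 5.50 and 5.42 in LK. The LK arrays agreed within 0.1 log2 units and LSK lay at the lower end of the range (log2 under 4), a 4.04-fold difference (-2.01, SE 0.19, adjusted p = 0.00425). The other Kif18a probe set, under log2 4 in both populations, gave 0.06. Kif22, a motor that binds chromosome arms, read 5.80, 5.87 and 6.34 in LSK and 7.17, 7.54 and 7.27 in LK (2.51-fold, -1.33, SE 0.19, adjusted p = 0.0138). For both motors the LSK arrays all lay below the LK arrays, as for 14.8% of all genes. Kif2c, which takes microtubules apart at the centromere, read 4.45, 4.23 and 3.65 in LSK and 5.49, 5.88 and 5.64 in LK (2.95-fold, -1.56, SE 0.23, adjusted p = 0.0151). Both Kif22 and Kif2c were read on probe sets with the suffix _x_at, which marks probes that may bind other transcripts. Without such probe sets the Kif22 difference was -0.21 (adjusted p = 0.858), and with its probe sets averaged it was -0.77 (adjusted p = 0.176). Of the 3 other Kif2c probe sets, all at log2 levels under 4, the brightest gave a difference of 0.03. Kif20b, a motor of late cytokinesis, read 6.45, 5.44 and 6.63 in LSK and 7.64, 7.65 and 7.62 in LK, where the spread lay in LSK (2.76-fold, -1.46, SE 0.31, adjusted p = 0.0400). Kif11, or Eg5, which pushes the spindle poles apart, differed by -0.93 (SE 0.41, adjusted p = 0.248) and passed with the block (0.0252). Kif4 (-0.63, adjusted p = 0.162), Kif20a (-0.62, adjusted p = 0.528) and Kif23 (-0.34, adjusted p = 0.520) did not pass with or without it. Kif15, a spindle motor that can stand in for Kif11, read 3.95, 5.69 and 3.66 in LSK and 3.91, 4.50 and 3.58 in LK. Its positive difference (0.44, SE 0.54, adjusted p = 0.704) came with a high value on LSK 2 and was -0.19 without that array. Kif18a passed in 6 of 6 fits that left out 1 array. Dropping LK 3 ended the call of Kif2c (adjusted p = 0.0669), dropping LK 3 or LSK 1 that of Kif22 (at most 0.0620), and Kif20b passed in the 2 fits lacking LSK 2 or LSK 3 (0.129 at most in the rest).

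**Figure D4:**
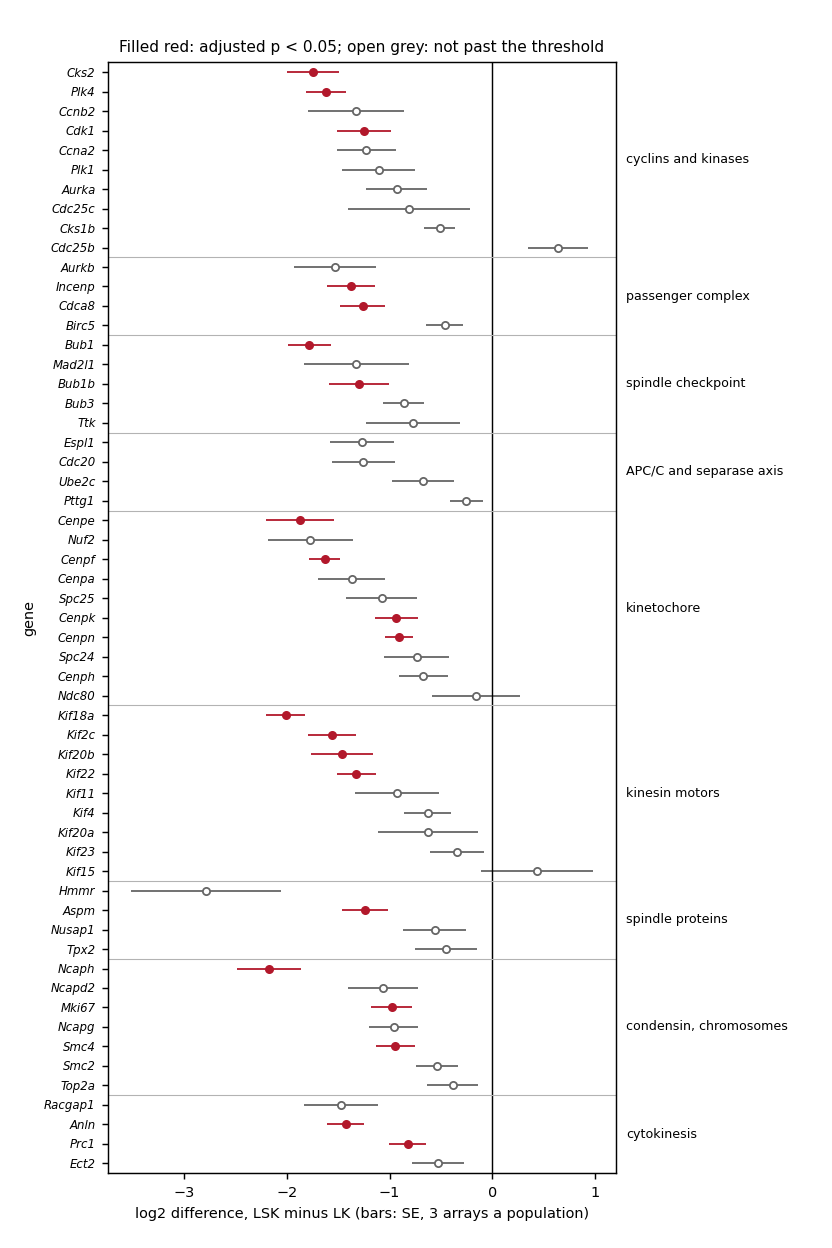
Log2 difference between LSK and LK with its SE for each of the 57 genes, grouped by role, with filled red points for an adjusted p under 0.05 and open grey points for the rest. The points lie left of 0 except for Cdc25b at 0.64 and Kif15 at 0.44, and the difference farthest from 0, Hmmr at -2.79, has an SE of 0.73 and did not pass.

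Of 4 other spindle proteins 1 was lower in LSK and 0 higher. Aspm, which focuses microtubules at the spindle poles, read 5.94, 6.31 and 6.11 in LSK and 7.34, 7.77 and 6.97 in LK (2.36-fold, -1.24, SE 0.23, adjusted p = 0.0282). Its LSK 2 was not the lowest LSK array, unlike in most of the genes. Hmmr, a spindle assembly factor, read 6.50, 4.12 and 7.19 in LSK and 8.82, 8.69 and 8.67 in LK. LSK 2 lay far below the other LSK arrays, and all LSK arrays lay below all LK arrays (-2.79, SE 0.73, adjusted p = 0.0723, 0.0322 with the block). With LSK 2 left out its difference was -1.88 and passed (adjusted p = 0.0184). Tpx2, an activator of Aurora A, read 8.85, 7.70 and 8.33 in LSK and 8.94, 8.46 and 8.84 in LK, with overlap (-0.45, SE 0.30, adjusted p = 0.458), and Nusap1 differed by -0.56 (SE 0.30, adjusted p = 0.347). Another Tpx2 probe set, of lower intensity, gave -2.23 (limma adjusted p over all probe sets = 0.152), so the probe sets of that gene disagreed in size. The Aspm call ended when any 1 LSK array or LK 1 was dropped (adjusted p at most 0.104).

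Condensin folds the chromosomes, and 3 of 7 genes of chromosome structure were lower in LSK, with 0 higher. Ncaph, a condensin I subunit, read 4.13, 4.23 and 5.24 in LSK and 6.82, 6.47 and 6.85 in LK. At 4.52-fold it had the largest difference of the 21 called genes (-2.18, SE 0.31, adjusted p = 0.0133). That value is from an _x_at probe set, and the other Ncaph probe set gave -0.74 (adjusted p = 0.278 without _s_at and _x_at probe sets). Smc4, one of the condensin ATPases, read 8.83, 8.76 and 9.39 in LSK and 9.95, 9.97 and 9.89 in LK (1.92-fold, -0.94, SE 0.19, adjusted p = 0.0373). Its partner ATPase Smc2 differed by -0.54 (SE 0.21, adjusted p = 0.188), Ncapg by -0.96 (SE 0.24, adjusted p = 0.0667) and Ncapd2 by -1.07 (SE 0.34, adjusted p = 0.124), and both of the latter passed with the block (0.0240 and 0.0220). For all 5 condensin genes the LSK arrays lay below the LK arrays, a pattern found for 14.8% of all genes. Mki67, the gene for the proliferation marker Ki-67 that coats mitotic chromosomes, read 8.72, 8.50 and 8.55 in LSK and 9.49, 9.95 and 9.25 in LK, a 1.97-fold difference (-0.98, SE 0.20, adjusted p = 0.0383). Top2a, the topoisomerase that untangles sister chromatids, read 8.82, 8.07 and 8.09 in LSK and 8.94, 8.75 and 8.45 in LK, where LSK 1 lay above LK 2 and LK 3 (-0.39, SE 0.25, adjusted p = 0.432). The call of Ncaph ended when LSK 1, LK 3 or both arrays numbered 2 were dropped (adjusted p at most 0.0642), that of Smc4 held only in the fit lacking LSK 3 (0.126 at most in the rest), and that of Mki67 in 0 of 6 (0.104 at most).

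In cytokinesis, 2 of 4 genes were lower in LSK and 0 higher. Anln, or anillin, which anchors the contractile ring, read 3.65, 3.30 and 3.78 in LSK and 5.15, 4.77 and 5.09 in LK (2.69-fold, -1.43, SE 0.18, adjusted p = 0.00910). The lowest LK array lay about 1 log2 unit above the highest LSK array. The LSK mean of 3.58 lay under log2 4, and the other Anln probe set, under 4 in both populations, gave 0.04. Prc1, which bundles the microtubules of the central spindle, read 8.63, 8.12 and 8.61 in LSK and 9.38, 9.16 and 9.30 in LK (1.77-fold, -0.82, SE 0.18, adjusted p = 0.0446). Racgap1, a subunit of centralspindlin, differed by -1.47 (SE 0.36, adjusted p = 0.0593) and passed with the block (0.0255). Ect2, the exchange factor that activates RhoA at the cleavage site, read 9.05, 8.07 and 8.73 in LSK and 8.998, 9.17 and 9.28 in LK, and LSK 1 lay above the lowest LK array (-0.53, SE 0.26, adjusted p = 0.292). Dropping LK 3 ended the Anln call (adjusted p = 0.0531), and Prc1 passed in 0 of 6 fits that left out 1 array (0.145 at most).

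Of the 57 genes 40 had more than 1 probe set, 132 probe sets in all. Of these 113 had a lower mean in LSK, and 65 were lower and 0 higher at an unadjusted limma p under 0.05. Adjustment over all 45037 probe sets left 18, each of them lower in LSK. Matching counts over all probe sets are not given here, and probe sets of 1 gene are not independent. Of the 21 called genes 19 had more than 1 probe set. In 10 of these another probe set was also lower at an unadjusted p under 0.05, and in none was one higher at that p. Of the called genes 4 were read on _x_at and 5 on _s_at probe sets. Without such probe sets 13 genes were called lower, and Ncaph, Kif22, Kif2c, Cdca8, Bub1b, Cenpn, Prc1 and Cenpk were not among them. Cenpk was not read on such a probe set. Its difference stayed at -0.94, and its adjusted p became 0.0528. The difference became -0.43 for Cdca8 (adjusted p = 0.610) and -0.16 for Bub1b (adjusted p = 0.668), while Plk4 kept its call at -0.56 (adjusted p = 0.0397). Incenp shows the range within a gene, since a probe set beside the one used gave -2.58 and 3 others lay between -0.23 and 0.41 at log2 levels under 6.

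A list of 113 other measured mitosis genes held 12 that were lower in LSK, 1 higher and 100 not past the threshold, with a median log2 difference of -0.50. Over all genes 2.89% were lower and 3.84% higher in that fit. The 3 with the largest differences among these 12 were Cenpu, an inner kinetochore gene (2.97-fold, adjusted p = 0.0461), Trip13, a remodelling ATPase of the checkpoint (2.84-fold, adjusted p = 0.0140), and Zw10, which recruits dynein to kinetochores (2.19-fold, adjusted p = 0.0256). Numa1, which links spindle poles to dynein, was the 1 gene higher in LSK. It read 10.82, 10.75 and 10.70 in LSK and 10.28, 9.91 and 10.12 in LK (1.57-fold, adjusted p = 0.0447). With the block 34 were lower and 2 higher, against 7.36% of all genes lower and 7.02% higher. Leaving out LSK 1, LSK 2, LK 1 or LK 3 brought the count of lower genes to 1, 6, 4 and 0 in turn. In the last, 34 were lower at an unadjusted limma p under 0.05. The shares of all genes lower in these fits were 0.434%, 1.12%, 1.53% and 0.418%. Numa1 passed in none of the 6 fits that left out 1 array. Of 47 DNA replication genes, which act before mitosis, 7 were lower in LSK and 0 higher (27 and 0 at an unadjusted limma p under 0.05), with a median of -0.76. Mcm10 (5.29-fold, adjusted p = 0.0353), Cdc6 (4.91-fold, adjusted p = 0.0188) and Rfc4 (2.42-fold, adjusted p = 0.0188) differed most among these 7. With the block 23 of the 47 were lower, against the same 7.36% of all genes. The replication count became 3, 14 and 1 when LSK 2, LSK 3 or LK 2 was dropped. It was 0 when LSK 1, LK 1 or LK 3 was dropped (27, 22 and 24 at an unadjusted limma p under 0.05). Over all genes 3.77% were lower without LSK 3 and 1.71% without LK 2. The share called lower was thus 36.8% for the mitosis genes, 10.6% for the other mitosis genes and 14.9% for the replication genes, against 2.89% of all genes. Among genes with a mean log2 of at least 5, 26 of 45, 17 of 73 and 20 of 41 were lower in turn, against 749 of 6016. The differences between these shares were not tested. In promoters, TTTGAA stood in 34.8% of 92 other mitosis genes and 17.9% of 39 replication genes with an entry.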

How the data were processed

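RNA of LSK and LK cells, 3 samples each, was amplified and hybridised to Affymetrix mouse arrays, per the labels' protocols. Values were deposited as linear probe set intensities. The submitters' processing notes name RMA, affy and R 2.11.0. Because RMA equalises the arrays, a change common to all genes cannot appear. Detection calls were not used here, and the number of arrays limits precision.

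Intensities were taken to log2. Of 45101 probe sets, 34945 carried 1 gene symbol (932 several, 9160 unlisted, 64 controls). Symbols were updated through RefSeq (GRCm38.p6), and each gene took its brightest probe set by mean log2. All 18193 genes were fitted with limma 3.58.1 in R 4.3.3 (lmFit, eBayes, two-sided, Benjamini-Hochberg, threshold 0.05), tested first on simulated data. A log2 level under 4 is called the lower end of the range. The members and lists were chosen with earlier results of these data known. Named are all members past the threshold, with the 2 lowest and the highest p of each role, and the largest differences among genes past the threshold in the other mitosis and replication lists (in the marker lists, the largest of any).

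Same-numbered arrays deviated together across genes (r = 0.42, 0.43 and 0.27, against at most 0.04 for different numbers), so the numbers were taken to pair samples, from the data rather than the labels. Deviations were taken from the mean of 3 arrays, so a positive r for same numbers pushes the others down. Over the mitosis genes alone r was 0.26, 0.36 and 0.26 for same numbers and -0.34 to 0.20 for different ones. The calls with the block rest on this pairing. The labels do not name separate animals, so the p-values speak only of variation among these samples, which may be technical. No 2 arrays were identical (0 of 15 pairs). Other settings tried were quantile or loess normalization of the deposited values, the replicate number as a blocking term, a minimum mean log2 of 5, averaged or most variable probe sets, trended and robust variances, array weights, a fold minimum, a covariate for the 3' to 5' control difference, and leaving out arrays.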

Additional observations from a re-analysis of the deposited data

How the results depend on the processing

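Under 18 other settings no mitosis gene was called higher in LSK. Of the 21 called lower, the count became 39 with the replicate block, 36 with array weights, 13 with a fold minimum of 1.2, 13 without probe sets whose suffix is _s_at or _x_at (a choice made after seeing the data), 0 with the 3' to 5' covariate and 5 to 20 when 1 array was left out. The block kept all 21, and leaving out both arrays numbered 2 kept 6 among its 14. The median difference was -0.73 with averaged probe sets and -1.20 to -0.83 without 1 array. Over all genes, 1225 passed, 2617 with the block, 2606 with array weights, 626 with the fold minimum, 25 with the covariate, 537 without both arrays numbered 2 and 306 to 1269 without 1 array. The 3' to 5' control difference was -1.22 to -0.69 without 1 array. Differences changed sign for Kif2c without those suffixes (0.033), Pttg1 and Bub3 without them or with the most variable probe set (0.0069 and 0.032 in both), Kif23 with the covariate (0.24), Kif15 with the covariate (-0.036) or without LSK 2 (-0.19, range without 1 array -0.19 to 0.82), and Ndc80 without LSK 2 (0.059) or LK 1 (0.18, range -0.64 to 0.18). For these changes the cause was not tested. Mean levels under log2 4, found in LSK for 8 of the 57 genes, limit how large a difference the arrays can show.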

Other observations

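Some genes of the MuvB core and its partners were looked at after their values had been seen. These factors act at the CHR element found in many mitosis gene promoters. Lin54, the subunit that contacts the CHR, read 6.50, 5.63 and 6.72 in LSK and 7.46, 7.34 and 7.36 in LK. Its arrays did not overlap, and the log2 difference of -1.10 (SE 0.28) had a limma adjusted p of 0.0680, or 0.0331 with the replicate block. Mybl2, the MuvB partner that switches mitosis genes on, read 2.85, 3.68 and 3.84 in LSK and 5.44, 4.09 and 5.56 in LK (-1.57, SE 0.45, adjusted p = 0.0913, 0.0580 with the block). Its LSK mean of 3.46 lay under log2 4. Foxm1, the later partner, differed by -0.43 (SE 0.15, adjusted p = 0.158) at levels under 4 in both populations. The MuvB subunit genes Lin9 (-0.18, adjusted p = 0.499), Lin37 (-0.19, adjusted p = 0.720) and Lin52 (0.23, adjusted p = 0.675) had small differences that did not pass. The Lin52 means of 3.39 in LSK and 3.15 in LK lay under log2 4, which limits the difference that can show.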
